A study of Mus musculus with 2 samples.

Results

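The 36 genes described here encode the actin filament, the proteins that bind and move it, the intermediate filament proteins vimentin and desmin, and Srf, a transcription factor of this gene class. They were taken by symbol from 55487 genes in the deposited table, and each symbol was matched to its Ensembl identifier in the GENCODE M21 annotation of GRCm38. All 36 were found. Myl12b had 2 identifiers, and the one with the higher mean was used. Of the 36 genes, 34 averaged 1 FPKM or more across the libraries, the filter on low values. FPKM counts fragments per kilobase of gene, scaled to library size. The gene length behind these values matched the mean of the gene's annotated transcripts. That mean can lie far below the exon bases of a gene, as for Myh9 at 2127 against 12928 bases. Levels, shares and multiples of different genes depend on this length and compare only roughly, while a ratio of old over young for 1 gene does not. The 2 genes under the filter were Cnn1 and Myh11.

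Messenger RNA had been sequenced from apoptotic osteoblasts, which are bone-forming cells driven into cell death, of old mice and of young mice, with 1 library per age. Bone pieces were cultured, adherent cells were passaged to bone marrow mesenchymal stem cells, osteogenic medium was given for 3 days, and apoptosis was then set off by 0.5 h of ultraviolet light. The old library carries the treatment label day 5 and the young library day 0, while the treatment protocol of both reads none. What the day counts is not stated, and whatever it marks cannot be told apart from age. Strain, sex, age in months and the number of animals per library are not stated in the labels. The cells had been expanded on culture plastic, so the values describe cultured cells and not bone in place. With 1 library per group no difference has a replicate check, no test was run and there are no p-values. Ratios are FPKM in the old library over FPKM in the young one, and brackets hold their exact 95% intervals from read counts, which do not include any other source of error. Log2 ratios have 1 FPKM added to both values, which understates differences of low genes, and counts of genes past 1.5-fold or 2-fold are on this log2 scale throughout.

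Actin filaments are polymers that grow and shrink by exchange of monomers. Non-muscle myosin II pulls on them after its regulatory light chain is phosphorylated, and tropomyosins along the filament decide which other proteins can bind. Mesenchymal cells in culture carry thick bundles of these filaments, the stress fibres, and osteoblasts use them to attach to matrix and to sense load. In a dying cell, myosin contraction drives the blebbing of the membrane. Srf, with its actin-regulated cofactors of the MRTF family, binds the CArG box and is known to drive many genes of this class.

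The FPKM values implied a total of 18114336 reads for the old library and 16333396 for the young. Of these, 18000106 in the old and 16230455 in the young library lay in annotated genes, so reads outside genes are hardly part of the totals. In the old library 20925 genes had a value above 0, and in the young library 19892. Reads were worked out from the steps of the FPKM values. Osteoblast markers were present at 8 of 10 past the filter, with a summed level of 8655 FPKM in the old and 8967 FPKM in the young library. Most of that sum was the collagen gene Col1a1, at 6788 FPKM in the old and 8568 FPKM in the young library, while Alpl stood at 3.28 FPKM in the old and 2.78 FPKM in the young library, and Bglap at 0.836 FPKM in the old and 0.464 FPKM in the young. Several of these markers differed between the libraries: Spp1 (osteopontin) was at 1732 FPKM in the old and 224 FPKM in the young, Dmp1, a marker of osteocytes, at 4.85 FPKM in the old and 0.377 FPKM in the young, and Sp7, an osteoblast transcription factor, at 28.9 FPKM in the old and 55.5 FPKM in the young. Their part in the values below was not tested. None of 7 endothelial markers passed, with sums of 0.690 and 0.748 FPKM in the old and the young library, and 3 of 8 monocyte and macrophage markers passed, with sums of 32.1 FPKM in the old and 30.4 FPKM in the young library. Those 3 were Lyz2 at 18.4 FPKM in the old and 21.3 FPKM in the young, Cd14 at 9.15 and 4.49 FPKM, and Cd68 at 4.36 and 4.51 FPKM. Ptprc had 0 reads in the old and 1 in the young library, Csf1r 6 and 1, Fcgr1 1 in each, and Adgre1 0 in both. Itgam also had 0 in both, but exons of another gene cover 68.7% of its exon bases. In these bulk samples, fewer cells of a type and less RNA per cell cannot be told apart.

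Together the 36 genes took 2.53% of the implied read total in the old library (95% Wilson interval 2.52% to 2.54%) and 2.59% in the young library (2.58% to 2.59%). Their levels summed to 20576 FPKM in the old and 21577 FPKM in the young library. In each library 26 of the 36 were at 100 FPKM or more. Among all genes ranked by FPKM, 8 of the 36 were in the top 100 in the old library and 9 in the young. The highest was Actb at 3625 FPKM in the old and 3845 FPKM in the young library, and the lowest was Myh11, with 2 reads in the old and 0 in the young.

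**Figure D1:**
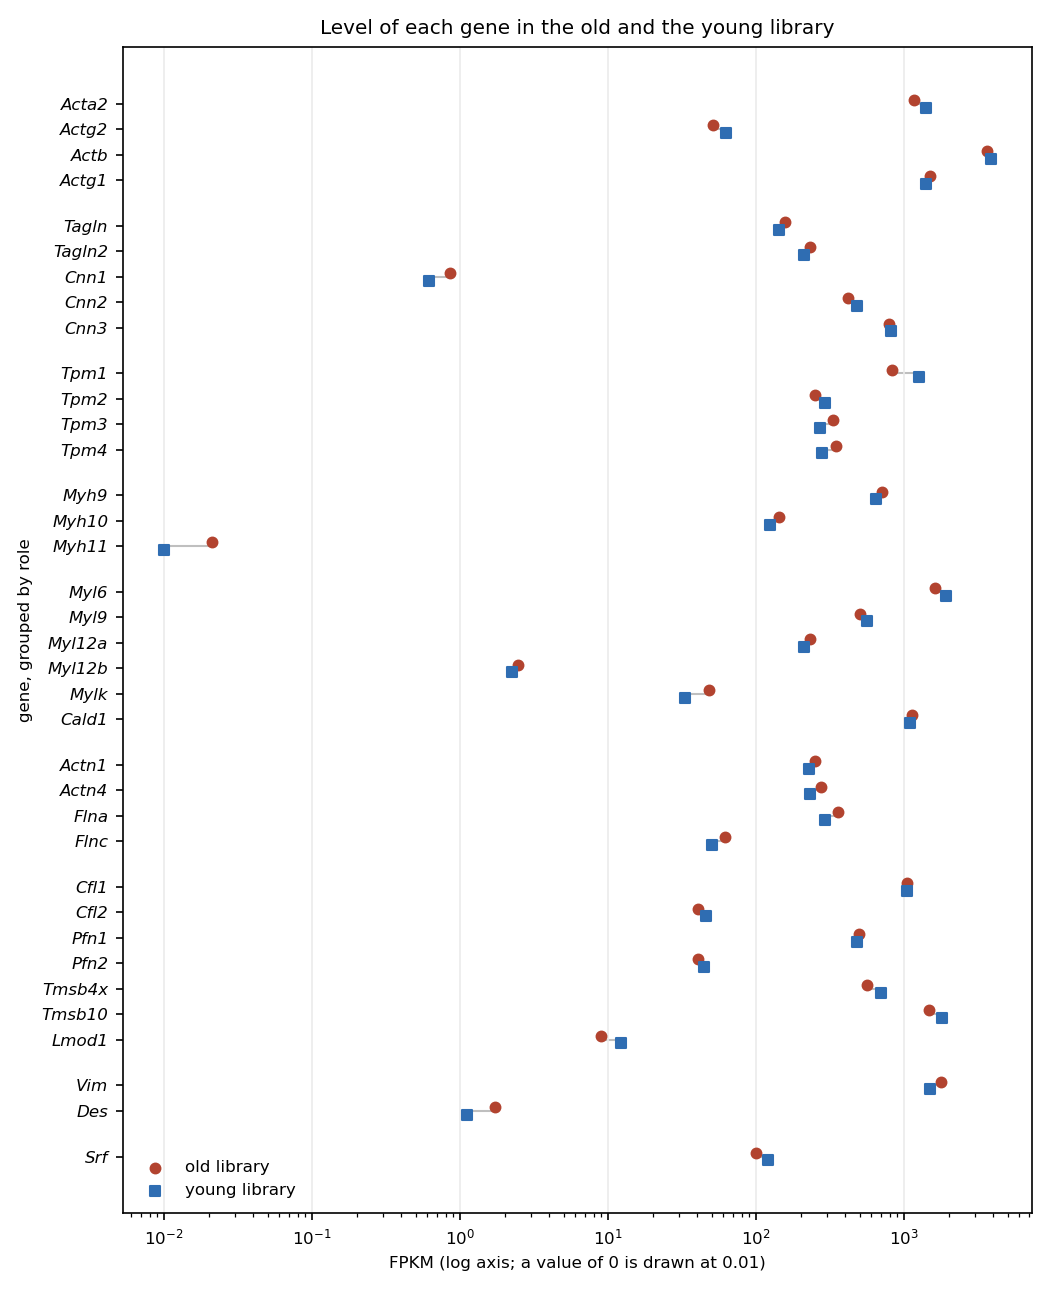
FPKM of each of the 36 genes in the old library (red circles) and the young library (blue squares), on a log axis and grouped by role, with 1 library per age. Levels run over 5 orders of the axis, from Myh11 and Cnn1 at the low end to Actb at the high end, and the circle and square of most genes lie close together.

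Differences between the libraries were small for nearly all of these genes. With 1 FPKM added, none of the 34 genes past the filter was higher by 1.5-fold or more in the old library, against 5.52% of the 12561 genes tested. Without it, the ratio of Des, on 48 and 28 reads in the old and the young library, was 1.55. Tpm1, which encodes a tropomyosin of stress fibres, was the single gene of the 34 that was lower by that much, against 4.47% of all genes. Among abundant genes alone, those that averaged 100 FPKM or more, 4.31% were higher and 1.47% lower by 1.5-fold. At 2-fold there was none of the 34 in either direction, against 1.97% of all genes higher and 0.868% lower. The log2 ratios lay between −0.59 for Tpm1 and 0.54 for Mylk, with a median of 0.05, a mean of 0.002 and an SD over genes of 0.26. Over all genes tested the median was −0.07 and the SD 0.40, and over the 1160 genes that averaged 100 FPKM or more the median was −0.02 and the SD 0.35.

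Counting error is small at these levels. The counting interval of the ratio lay wholly above 1 for 16 of the 34 genes and wholly below 1 for 15. Over all genes tested those shares were 20.6% above and 33.5% below, and over genes that averaged 100 FPKM or more they were 34.8% above and 41.5% below. In the group of 34, 18 log2 ratios were above 0 and 16 below, against 40.4% above and 59.6% below over all genes. The spread between cultures or animals is not part of these intervals.

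**Figure D2:**
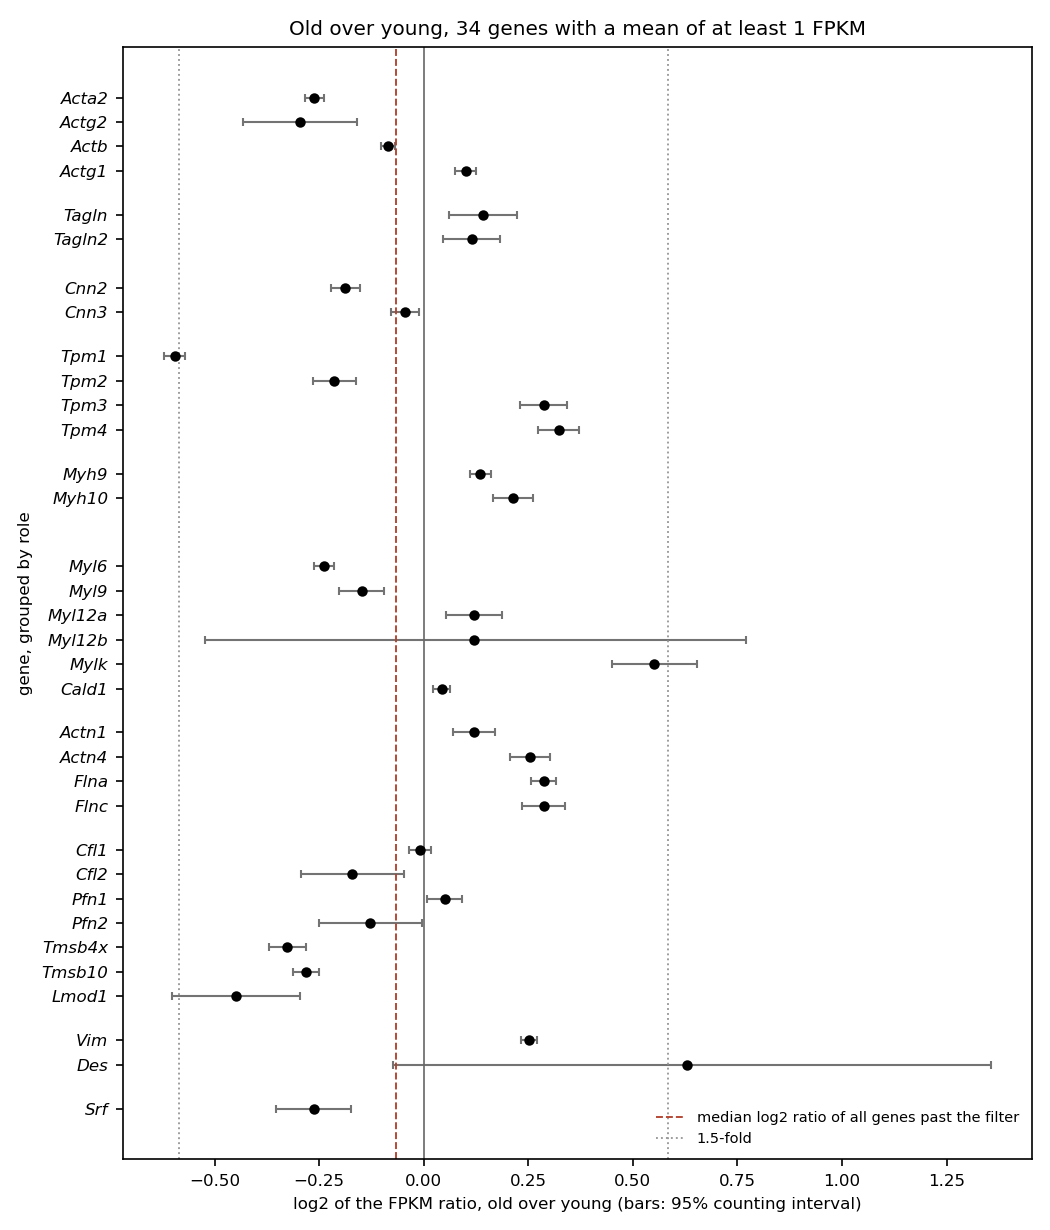
Log2 of the FPKM ratio, old over young, for the 34 genes past the filter, grouped by role. Points are the ratios, bars are 95% counting intervals, dotted lines mark 1.5-fold and the dashed line is the median log2 ratio of all genes past the filter. Tpm1 is the point farthest to the left, the 4 crosslinkers all lie right of 0, and the bars of Des and Myl12b are wide because they rest on few reads.

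The transcription factor Srf (ENSMUSG00000015605, chromosome 17, 46548329 to 46556175, GRCm38) stood at 100.0 FPKM in the old library on 1913 reads, against 120.0 FPKM in the young library on 2070 reads. That is a ratio of 0.833 [0.783 to 0.887], lower in the old library by less than 1.5-fold. Its cofactors lay on both sides of even, with 3 of the 5 measured ones higher in the old library. Mrtfa, an actin-regulated coactivator, was at 48.6 FPKM in the old and 46.6 FPKM in the young library, and the related Mrtfb at 13.1 FPKM in the old and 11.6 FPKM in the young. The ternary complex factor Elk3 had the largest log2 ratio of this list, at 0.37 from 55.8 FPKM in the old and 43.0 FPKM in the young library. Elk4 was at 29.4 FPKM in the old and 35.1 FPKM in the young library, and Elk1 at 7.64 FPKM in the old and 8.54 FPKM in the young. No read of Myocd, the cofactor of differentiated smooth muscle, or of Abra was found in either library; a count of 0 allows Myocd up to 0.0579 FPKM in the old and 0.0643 FPKM in the young library. Of the 7 cofactor genes, 5 passed the filter and the median log2 ratio was 0.06. None was past 1.5-fold, against 5.52% of all genes tested higher and 4.47% lower.

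Since Srf acts through the CArG box, the promoters of the genes were searched for it. RefSeq promoter sequences of GRCm38, from 250 bases before to 50 after the start, were at hand for 32 of the 36 genes, with 38 starts. Actb, Actg2, Tagln and Myh11 had no entry. Only the strict form was searched, CC and GG around a run of A or T bases. A box with any other base was not counted, so a gene without a match may still hold one. The box was found in 5 of the 32 genes (15.6%), against 488 of 27025 genes with a promoter entry (1.81%). The box reads the same on both strands. The 4 sequences below are shown because they carry the box ahead of the first exon of the gene. They run 5′ to 3′ on the gene's strand, in lower case with the box in capitals. Each ends just before the first base that GENCODE places in an exon of the gene. Srf is on the minus strand (chr17:46556176-46556412), Actg1 on the minus strand (chr11:120348543-120348745), Cnn2 on the plus strand (chr10:79988350-79988583) and Myl9 on the plus strand (chr2:156775214-156775419).
Srf: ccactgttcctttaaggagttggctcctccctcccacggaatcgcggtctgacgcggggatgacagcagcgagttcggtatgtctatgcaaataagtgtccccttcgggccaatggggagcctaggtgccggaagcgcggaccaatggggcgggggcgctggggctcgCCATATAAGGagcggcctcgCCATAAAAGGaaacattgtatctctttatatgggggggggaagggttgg
Actg1: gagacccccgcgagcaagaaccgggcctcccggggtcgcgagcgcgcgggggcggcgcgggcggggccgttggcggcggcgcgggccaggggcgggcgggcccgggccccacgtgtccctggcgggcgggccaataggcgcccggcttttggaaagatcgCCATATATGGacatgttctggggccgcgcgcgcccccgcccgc
Cnn2: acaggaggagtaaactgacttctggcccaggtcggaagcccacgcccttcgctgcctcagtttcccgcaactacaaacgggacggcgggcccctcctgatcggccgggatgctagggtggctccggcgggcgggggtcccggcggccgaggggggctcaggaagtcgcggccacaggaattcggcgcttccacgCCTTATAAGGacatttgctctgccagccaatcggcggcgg
Myl9: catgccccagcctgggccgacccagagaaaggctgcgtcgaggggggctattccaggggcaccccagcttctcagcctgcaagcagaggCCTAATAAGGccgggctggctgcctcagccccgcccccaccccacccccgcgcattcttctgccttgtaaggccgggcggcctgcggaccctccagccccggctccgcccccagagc
Srf held a pair of boxes, beginning 82 and 62 bases before its start, and no other of the 32 genes held more than 1. In Actg1 the box began 90 bases before the start, in Cnn2 56 and in Myl9 161. The fifth gene, Myl6, held CCTTATATGG 50 bases before a downstream start that lies within an annotated exon. Log2 ratios of the 5 genes were −0.26 for Srf, −0.24 for Myl6, −0.19 for Cnn2, −0.15 for Myl9 and 0.10 for Actg1, so 4 were lower and 1 was higher in the old library. Over all genes tested 59.6% were below 0 and 40.4% above. Whether the box bears on these ratios was not tested. These are matches of letters and not measured sites, and matches of different motifs could overlap.

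A shorter motif was searched as well. GGAATG, the core of the element bound by TEAD factors, was looked for on both strands (the other strand reads CATTCC) and found in 12 of the 32 genes (37.5%), against 16.6% of genes with an entry. Of the 12, Tpm1, Lmod1 and Acta2 had log2 ratios below 0, and that of Tpm1 was the lowest of the 34. The rest were above 0: Mylk, with the highest of the 34, Flna, Flnc, Actn4, Myh10, Myl12a, Tagln2, Pfn1 and Cald1. Over all genes tested 40.4% were above 0. Whether the motif bears on these ratios was not tested. The motif thus occurred in promoters of genes at both ends of the range. CCAAT, on both strands, was in 17 of the 32 genes (53.1%) against 41.1% of genes with an entry. TATAAA, on both strands, was in 4 of the 32 genes (12.5%) against 15.7%.

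Among the actins, the isoforms of smooth muscle were lower in the old library and the cytoplasmic pair was close to even. Acta2, alpha smooth muscle actin (ENSMUSG00000035783, chromosome 19, 34241090 to 34255590), was at 1171 FPKM in the old library on 30358 reads, against 1404 FPKM in the young on 32815 reads. Its ratio was 0.834 [0.821 to 0.847]. Actg2, the gamma isoform of visceral smooth muscle, was at 50.8 FPKM in the old and 62.4 FPKM in the young library, a ratio of 0.814 [0.741 to 0.895]. Those ratios lie close together, although the level of Acta2 is far above that of Actg2.

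Actb, the cytoplasmic beta-actin, was at 3625 FPKM in the old and 3845 FPKM in the young library, a ratio of 0.943 [0.932 to 0.954]. Actg1, the cytoplasmic gamma-actin, was at 1496 FPKM in the old and 1396 FPKM in the young library, a ratio of 1.07 [1.05 to 1.09]. In FPKM, Acta2 thus stood below Actg1 in the old library, at 0.783 of its value, and level with it in the young, at 1.01. By reads Acta2 was above Actg1 in both, at 30358 against 28044 in the old library and 32815 against 23592 in the young. Which of the 2 ranks higher thus depends on the gene lengths used, 1431 bases for Acta2 and 1035 for Actg1. Of the summed actin FPKM, 57.2% was Actb in the old and 57.3% in the young library, 23.6% was Actg1 in the old and 20.8% in the young, and 18.5% was Acta2 in the old and 20.9% in the young. Actg2 made up 0.801% in the old and 0.930% in the young library.

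The 4 actin mRNAs are near relatives, and how well reads tell them apart bears on these values. The last 90 coding bases of each are shown to make this visible, read from the GENCODE M21 transcripts, with capitals at every base that differs from Actb.
Acta2: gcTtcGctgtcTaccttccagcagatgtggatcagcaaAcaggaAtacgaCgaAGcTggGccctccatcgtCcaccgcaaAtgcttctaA
Actg2: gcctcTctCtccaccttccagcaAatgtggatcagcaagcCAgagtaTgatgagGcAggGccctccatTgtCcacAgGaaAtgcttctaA
Actb: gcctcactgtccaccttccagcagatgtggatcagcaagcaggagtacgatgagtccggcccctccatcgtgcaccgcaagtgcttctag
Actg1: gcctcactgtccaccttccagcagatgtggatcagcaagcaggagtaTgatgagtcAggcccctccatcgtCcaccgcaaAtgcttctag
Actg1 differed from Actb at 4 of these 90 bases, Acta2 at 13 and Actg2 at 15. Over the last 1100 coding bases Actg1 was 89.0% identical to Actb, and Acta2 was 83.6% and Actg2 83.5% identical to it. The longest run of identical bases was 62 between Actb and Actg1, 56 between Acta2 and Actg1 and 29 between Acta2 and Actg2. When the transcripts were cut into words of 50 bases taken every 25 bases, a step that can miss a run little longer than a word, Acta2 and Actg2 shared no word with any other gene. Actb shared 10.5% of its words and Actg1 58.2%, with 22 other genes, so the Actg1 value is uncertain.

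The tropomyosins went in opposite directions, and their make-up differed more than that of any other family examined. Tpm1 (ENSMUSG00000032366, chromosome 9, 67022590 to 67049406) was at 829.7 FPKM in the old library on 21612 reads, against 1253 FPKM in the young on 29436 reads. The ratio was 0.662 [0.650 to 0.674] and the log2 ratio −0.59, just past 1.5-fold, with an interval that spans that threshold. Tpm1 shares no word with other genes and has no overlapping exon. Tpm2, the beta-tropomyosin, was at 251 FPKM in the old and 291 FPKM in the young library, a ratio of 0.862 [0.832 to 0.894].

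Tpm3 and Tpm4, which encode mainly short cytoskeletal tropomyosins, were higher in the old library. Tpm3 was at 331 FPKM in the old and 272 FPKM in the young library, a ratio of 1.22 [1.17 to 1.27]. Other genes hold 41.7% of its 50-base words. Tpm4 was at 348 FPKM in the old and 278 FPKM in the young library, a ratio of 1.25 [1.21 to 1.29], and other genes hold 20.6% of its words. The FPKM of Tpm1 was 2.39 times that of Tpm4 in the old and 4.51 times in the young library. Tpm1 was the most abundant tropomyosin in both libraries.

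As a share of the summed tropomyosin FPKM, Tpm1 made up 47.2% in the old and 59.9% in the young library. Tpm4 made up 19.8% in the old and 13.3% in the young, and Tpm3 18.8% in the old and 13.0% in the young. Tpm2 kept nearly the same share, at 14.2% in the old and 13.9% in the young library. By reads, Tpm1 took 52.4% of the family in the old library (95% Wilson interval 51.9% to 52.9%) and 64.6% in the young (64.1% to 65.0%). The 4 genes summed to 1759 FPKM in the old and 2094 FPKM in the young library, a ratio of 0.840. Tpm1 has 21 annotated transcripts and Tpm3 has 16, and a value per gene does not tell long muscle-type from short forms.

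**Figure D3:**
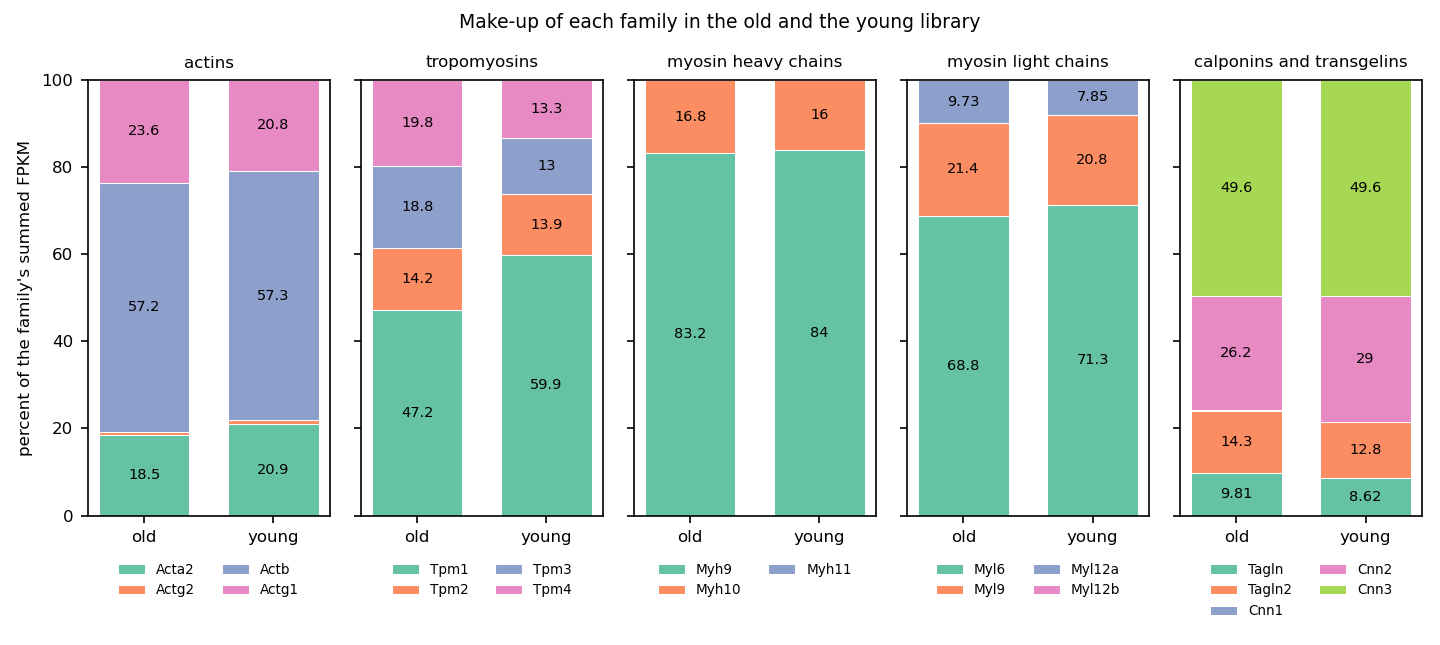
Stacked bars give each gene's percent of its family's summed FPKM in the old library (left bar) and the young library (right bar) for 5 families, with 1 library per age. The Tpm1 segment is 47.2% in the old and 59.9% in the young bar, while the segments of the myosin heavy chains and of the calponins and transgelins differ by under 3 percentage points.

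Calponins and transgelins share a domain that binds actin filaments. Tagln, the smooth muscle protein SM22 alpha, was at 157 FPKM in the old and 142 FPKM in the young library, a ratio of 1.10 [1.04 to 1.17] and thus opposite in direction to Acta2. Exons of other genes on the other strand cover 67.9% of its exon bases, and no source states that strand was used, so its level is uncertain. Tagln2 was at 229 FPKM in the old and 212 FPKM in the young library, a ratio of 1.08 [1.03 to 1.13]. Cnn2 was at 420.4 FPKM in the old and 479 FPKM in the young library, a ratio of 0.878 [0.857 to 0.900]. Cnn3, the acidic calponin of non-muscle cells, was at 794 FPKM in the old and 819 FPKM in the young library, a ratio of 0.970 [0.948 to 0.992].

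Cnn1, the calponin of differentiated smooth muscle, stood far below its relatives at 0.855 FPKM on 17 reads in the old and 0.613 FPKM on 11 reads in the young library. Its ratio of 1.39 had an interval of 0.616 to 3.29, so a difference was not detectable at this depth. Acta2 had 1370 times the FPKM of Cnn1 in the old library and 2289 times in the young. Myh11, the smooth muscle myosin heavy chain, had 2 reads in the old and 0 in the young library, both under the floor of 3 reads, and no fold is given. Acta2 was thus abundant in both libraries while Cnn1 and Myh11 were at a few reads.

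The list of 13 smooth muscle and pericyte markers was examined next. Of these, 7 passed the filter, and Myocd and Kcnj8 were at 0 in both libraries. Their summed level was 115 FPKM in the old and 115 FPKM in the young library, most of it from Smtn, smoothelin, at 77.1 FPKM in the old and 78.2 FPKM in the young. The pericyte marker Rgs5 had 0.0458 FPKM in the old and 0.0508 FPKM in the young library. Of 12 skeletal and cardiac muscle markers, Mylpf alone passed, 6 were at 0 in both, and the sums were 2.98 FPKM in the old and 5.04 FPKM in the young library. The markers past the filter in the first list also included Cspg4 at 14.98 FPKM in the old and 12.1 FPKM in the young library, Lmod1, Des, and Synpo2 at 5.67 FPKM in the old and 6.41 FPKM in the young. Notch3 was at 3.96 FPKM in the old and 2.53 FPKM in the young library, a ratio of 1.57 [1.26 to 1.96]. Its log2 ratio was 0.49 with 1 FPKM added. Mcam was at 2.21 FPKM in the old and 1.67 FPKM in the young, a ratio of 1.32 [0.862 to 2.03]. Of the 7 log2 ratios 4 were above 0 and 3 below, against 40.4% of all genes tested above 0. The median of the 7 was 0.26. The first list was thus mixed, with some markers measured well and others at or near 0.

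Both heavy chains of non-muscle myosin II were slightly higher in the old library. Myh9, the heavy chain of non-muscle myosin IIA, was at 709 FPKM in the old and 646 FPKM in the young library, a ratio of 1.10 [1.08 to 1.12]. Myh10, that of myosin IIB, was at 143 FPKM in the old and 123 FPKM in the young library, a ratio of 1.16 [1.12 to 1.20]. Myh9 made up 83.2% of the summed heavy chain FPKM in the old and 84.0% in the young library. Their balance was thus close to even between the libraries.

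Light chains lay on both sides of even, with Myl6 and Myl9 lower and Myl12a higher in the old library. Myl6, the essential light chain, was at 1625 FPKM in the old and 1917 FPKM in the young library, a ratio of 0.848 [0.833 to 0.862]. Other genes hold 31.9% of its words. Among the regulatory light chains, Myl9 was at 505 FPKM in the old and 559 FPKM in the young library, a ratio of 0.902 [0.869 to 0.936]. Myl12a was at 229.7 FPKM in the old and 211 FPKM in the young library, a ratio of 1.09 [1.04 to 1.14]. Myl12a shares 43.4% of its words with other genes, and exons of the second Myl12b entry and of Myom1 cover 19.9% of its exon bases, so its value is uncertain. Its neighbour Myl12b had 2.44 FPKM on 47 reads in the old and 2.25 FPKM on 39 reads in the young library, a ratio of 1.09 [0.696 to 1.71]. Exons of the second gene entry of the same name, which had 0 reads in both libraries, cover 26.7% of the Myl12b exon bases. Of the Myl12b words 46.3% occur in other genes, so its low level is uncertain.

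Mylk, which encodes myosin light chain kinase and the short protein telokin, had the highest log2 ratio of the 34 genes. Mylk (ENSMUSG00000022836, chromosome 16, 34745210 to 35002420) was at 48.4 FPKM in the old library on 2053 reads, against 33.0 FPKM in the young on 1263 reads. Its ratio was 1.47 [1.37 to 1.57] and its log2 ratio 0.54, under 1.5-fold, with an interval that reaches past it. The FPKM of Mylk was 0.0958 of that of Myl9 in the old and 0.0590 in the young library. Cald1, caldesmon, which holds back myosin on the filament, was close to even at 1127 FPKM in the old and 1094 FPKM in the young library, a ratio of 1.03 [1.02 to 1.05].

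The crosslinkers were higher in the old library, all 4 of them, by less than 1.5-fold. Actn1 and Actn4, the non-muscle alpha-actinins, had ratios of 1.09 [1.05 to 1.13] and 1.19 [1.15 to 1.23]. Actn1 was at 248 FPKM in the old and 228 FPKM in the young library, and Actn4 at 275 FPKM in the old and 231 FPKM in the young. Flna, the widespread filamin, was at 359 FPKM in the old and 294 FPKM in the young library, a ratio of 1.22 [1.19 to 1.25]. Flnc, the muscle filamin, was at 61.7 FPKM in the old and 50.6 FPKM in the young library, a ratio of 1.22 [1.18 to 1.26]. Flna thus had 5.81 times the FPKM of Flnc in each library. That multiple rests on lengths of 3242 bases for Flna and 6376 for Flnc, whose exon bases are nearly equal at 9400 and 9402. Of the summed FPKM of the pair Flna took 85.3% in each library, and of the reads 74.7%. The median log2 ratio of the crosslinkers was 0.27.

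Among the 7 genes of monomer binding and turnover, 6 log2 ratios were below 0 and 1, that of Pfn1, was above. Over all genes tested 59.6% were below 0. The thymosins hold monomers in reserve, and both were lower in the old library. Tmsb4x was at 560.4 FPKM in the old and 702 FPKM in the young library, a ratio of 0.798 [0.774 to 0.822]. Tmsb10 was at 1472 FPKM in the old and 1789 FPKM in the young library, a ratio of 0.823 [0.805 to 0.841]. Other genes hold 48.8% of its words. The balance of the pair was much the same, with Tmsb10 at 2.63 times the FPKM of Tmsb4x in the old and 2.55 times in the young library.

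Cfl1, the main cofilin, which severs old filaments, was even at 1039.9 FPKM in the old and 1047 FPKM in the young library, a ratio of 0.994 [0.975 to 1.01]. Cfl1 shares 23.7% of its words with other genes, and exons of other genes cover 16.5% of its exon bases. Pfn1, the profilin that feeds monomers to growing ends, was at 495 FPKM in the old and 478 FPKM in the young library, a ratio of 1.04 [1.005 to 1.07]. Their less abundant relatives Cfl2 and Pfn2 had ratios of 0.889 [0.816 to 0.967] and 0.915 [0.840 to 0.996]. Cfl2 was at 40.4 FPKM in the old and 45.5 FPKM in the young library, and Pfn2 at 40.7 FPKM in the old and 44.4 FPKM in the young. Lmod1, leiomodin 1, which starts filaments in smooth muscle, was at 8.91 FPKM in the old and 12.2 FPKM in the young library. Its ratio of 0.733 [0.659 to 0.814] was the lowest of the 34 after Tpm1. The median log2 ratio of these 7 genes was −0.17.

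Vim, the intermediate filament protein of mesenchymal cells, was at 1780 FPKM in the old library on 48006 reads, against 1494 FPKM in the young on 36343 reads. Its ratio was 1.19 [1.17 to 1.21]. Des, the intermediate filament protein of muscle, was at 1.71 FPKM on 48 reads in the old and 1.11 FPKM on 28 reads in the young library. The ratio of 1.55 [0.9504 to 2.56] includes 1, and on the scale of FPKM + 1 the log2 ratio was 0.36. A difference in Des was not detectable at this depth.

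Transcript length was set against these ratios. Of the 7 genes with a mean transcript length of 2 kb or more, 6 had log2 ratios above 0, with Lmod1 the exception. Over all genes tested, of any length, 40.4% were above 0. Of the 10 under 1 kb, 4 were above 0, with a median of −0.12. Across the 34 genes, which share both libraries, Spearman's rank correlation between transcript length and log2 ratio was 0.37 and Pearson's r with log2 length 0.32.

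The same trend was weak over all genes. Spearman's rank correlation was 0.06 over 12554 genes with an annotated length, and 0.14 over the 1160 that averaged 100 FPKM or more. The median log2 ratio of all genes was below 0 in every length class, at −0.09 under 1 kb and −0.03 at 3 kb or more. In the abundant class it was −0.05 under 1 kb, over 451 genes, and 0.10 at 3 kb or more, over 31 genes. The part of transcript length in the ratios of the 34 genes was not tested.

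**Figure D4:**
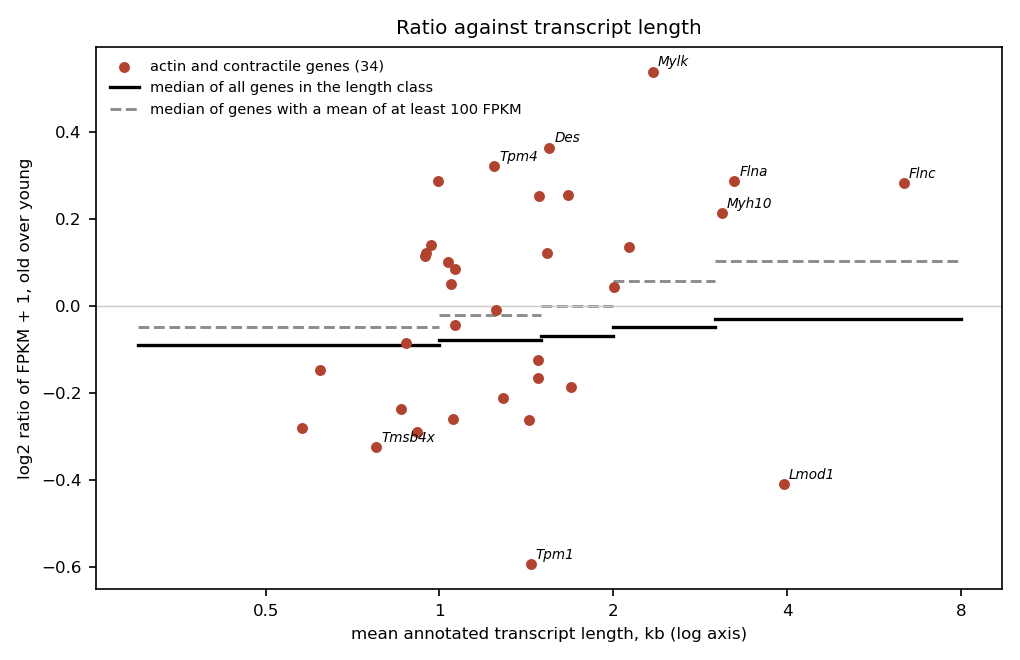
Log2 ratio (1 FPKM added), old over young, against mean annotated transcript length on a log axis, for the 34 genes (points). Solid lines are medians of all genes per length class and dashed lines those of genes averaging 100 FPKM or more. Of the 7 points at 2 kb or more 6 lie above 0, and Tpm1 and Lmod1 lie lowest. The solid lines lie below 0 in every class.

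Beyond these genes, the rest of the actin pathway was taken from 6 lists. For comparison, 5.52% of all genes tested were higher and 4.47% lower by 1.5-fold or more. Of the 9 subunits of the Arp2/3 complex, which branches filaments, none was past 1.5-fold and the median log2 ratio was 0.08. The alternative p40 subunits parted: Arpc1b was at 369 FPKM in the old and 267 FPKM in the young library, with 23.7% of its words shared, and Arpc1a at 103 FPKM in the old and 127 FPKM in the young. Arpc5l was at 43.2 FPKM in the old and 54.0 FPKM in the young library.

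Formins, which build straight filaments, and nucleation-promoting factors had 19 of 24 genes past the filter. Of these 13 were above 0, against 40.4% of all genes tested, none was past 1.5-fold, and the median was 0.16. Inf2 was at 65.6 FPKM in the old and 45.6 FPKM in the young library, a ratio of 1.44 [1.35 to 1.53]. Fmnl3 was at 39.3 FPKM in the old and 28.3 FPKM in the young library, and Diaph1 at 18.3 FPKM in the old and 14.0 FPKM in the young.

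Among 24 measured genes of severing, capping and bundling, Capg alone was past 1.5-fold with 1 FPKM added, and the median was 0.001. Capg, a capping protein of the gelsolin family, was at 174 FPKM in the old library on 2502 reads, against 78.6 FPKM in the young on 1021 reads, a ratio of 2.21 [2.05 to 2.38]. Ssh1, a phosphatase that switches cofilin on, was at 12.7 FPKM in the old and 17.8 FPKM in the young library. Tmod2 was at 1.44 FPKM in the old and 2.34 FPKM in the young library, a ratio of 0.616 [0.461 to 0.819] and a log2 ratio of −0.45 with 1 FPKM added.

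Other known SRF and MRTF targets went both ways, with 18 of 18 past the filter and a median of 0.05. By 1.5-fold or more 2 were higher and 2 lower, against 5.52% and 4.47% of all genes tested. Ankrd1, which is also a YAP target, was at 8.81 FPKM in the old and 15.3 FPKM in the young library, a ratio of 0.575 [0.495 to 0.666], and Filip1l at 4.09 FPKM in the old and 7.18 FPKM in the young. Tes, a LIM-domain protein of focal adhesions, was at 17.97 FPKM in the old and 9.01 FPKM in the young library, a ratio of 1.99 [1.74 to 2.30]. Relatives of the 36 genes were mostly silent, with 7 of 35 past the filter and 12 at 0 in both libraries. Of these relatives Synm, an intermediate filament protein of muscle, was at 8.49 FPKM in the old and 17.9 FPKM in the young library, a ratio of 0.473 [0.433 to 0.517]. The light chain Myl6b was at 14.7 FPKM in the old and 8.79 FPKM in the young library, and Mylpf at 2.04 FPKM on 16 reads in the old and 3.95 FPKM on 28 reads in the young.

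**Figure D5:**
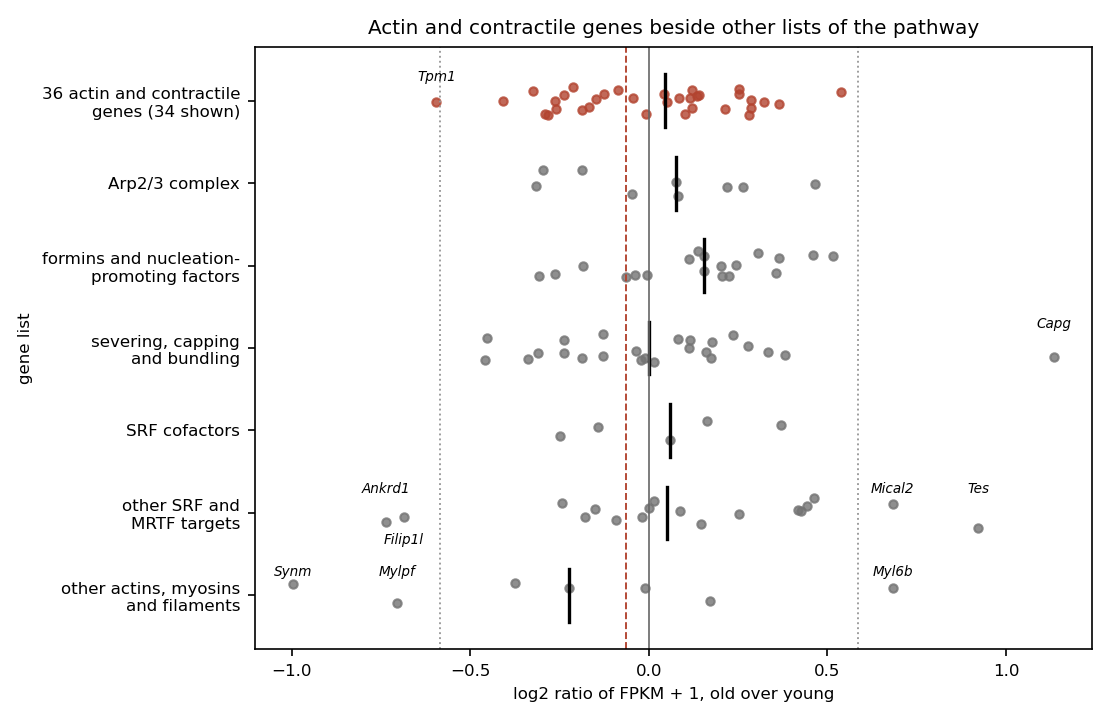
Each point is the log2 ratio (1 FPKM added) of a gene past the filter, old over young, in the 36 actin and contractile genes (red, 34 shown) and 6 other lists of the pathway (grey). Black bars are list medians, dotted lines mark 1.5-fold, and the dashed line is the median of all genes. Genes past 1.5-fold are named, and Tpm1 is the one such gene in the top row.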

How the data were processed

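The authors deposited 1 FPKM value per gene and library for 55487 Ensembl genes; the build mm10 and the tools fastp, STAR, HTSeq and edgeR are named in the submitters' processing notes, without roles or versions. Which annotation, filters and strand setting they used is not given in the sources used here. Each library was placed by its age label. Annotation came from GENCODE M21, which held 55227 of the identifiers. Reads were recovered by multiplying FPKM by the rounded mean transcript length: 97.6% of values above 0 in each library came out whole within 0.01 reads (20377 of 20884 in the old, 19378 of 19854 in the young).

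The log2 ratio used FPKM + 1, old over young, for 12561 genes averaging 1 FPKM or more, and 1.5-fold and 2-fold were counted. Intervals of ratios are Clopper-Pearson, those of shares Wilson (scipy 1.17.1). Reads of PCR copies are not independent molecules, and a gene with 0 reads was given 3 reads as its upper limit. Words of 50 bases, taken every 25, were searched in transcripts of other genes. The calculation was tested on simulated data. Other pseudocounts, filters and scalings were tried. The genes named are all 36, the 3 largest log2 ratios of each pathway list and every SRF cofactor; the members and lists were chosen with earlier results of these data known. Any other gene, and the motifs searched, were chosen after values were seen. The genes of 1 further pathway list are not reported here.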

Additional observations from a re-analysis of the deposited data

How the results depend on the processing

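Of the 34 log2 ratios, all kept their sign with a pseudocount of 0.1 or 5, with no filter, with a mean of at least 10 FPKM (32 genes left) and when rescaled without the 10 most abundant genes. Centred on the median of all genes, Cnn3 (0.02) and Cfl1 (0.06) moved above 0, the median of the 34 was 0.11, and the count lower by 1.5-fold was 0, as Tpm1 was at −0.53, while the count higher was 1, Mylk at 0.60. At a pseudocount of 0.1 the count higher was also 1, Des at 0.59. Over the 23 measured genes with little shared sequence the median was 0.04. By reads in place of FPKM, the Tpm3 share was 4.79 percentage points higher in the old library. Counts over all genes moved more: at a pseudocount of 0.1, 860 were lower by 1.5-fold, and 408 higher and 236 lower by 2-fold. At a pseudocount of 5, 348 were higher and 140 lower by 1.5-fold, and 101 and 20 by 2-fold. At a mean of at least 10 FPKM, 294 were higher and 208 lower by 1.5-fold, and 106 and 27 by 2-fold. The median of the severing, capping and bundling list was 0.10 and that of the SRF cofactors 0.11 at a mean of at least 10 FPKM, and centring raised both, to 0.07 and 0.12. By reads, the Acta2 share was −3.21 percentage points, old minus young, and the Actb share 0.30, opposite in sign to its share of FPKM. Named genes outside the 36 that moved at a pseudocount of 5 were Tes (0.71), Synm (−0.77) and Filip1l (−0.42). No paired analysis was possible because each group has 1 library. Depth limits Cnn1, Myh11, Des and Myl12b, each with under 50 reads in a library.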
